A study of Mus musculus with 15 samples.

Results

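Inhib_1 is a cluster of GABAergic neurons of the mouse prefrontal cortex (PFC) in which Sst, the gene of the neuropeptide somatostatin, was the most prominent marker. Its members were the cells that the deposited table of cells assigns to Inhib_1 in any of the 15 libraries, which gave 134 of 35360 retained cells and 134 of the 2153 cells in the 12 inhibitory clusters. Of these, 36 came from adult mice (P60) and 98 from mice at postnatal day 21 (P21). One further cluster, Inhib_2 with 453 cells, also held Sst at a high level and is the comparison used most here.

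Single-cell RNA-seq was performed on the PFC of male C57BL/6N mice, each library being made from the pooled tissue of 2 mice. The adult mice were 8 to 10 weeks old and self-administered saline or cocaine intravenously, and tissue was taken at the end of the maintenance phase, after 48 h of withdrawal or after 15 days of withdrawal, with 2 libraries for each of the 6 groups. The 3 P21 libraries came from mice of 3 weeks with no treatment in their labels, and since the methods give 4 mice for that age, how they were divided over 3 libraries is not known. Some of the P21 libraries may therefore share mice. No mouse carried a transgene by the labels. The retained cells of a library held between 8375172 and 42892922 unique molecular identifiers (UMIs, each counting 1 captured mRNA molecule). Counted over all pairs of libraries, a cell barcode was shared 769 times, 3 of them with a cell of Inhib_1. A barcode in more than 2 libraries is counted more than 1 time in this.

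Somatostatin neurons are inhibitory interneurons that arise in the medial ganglionic eminence under the transcription factors Lhx6 and Sox6, and many of them, the Martinotti cells, send axons to layer 1 and inhibit the distal dendrites of pyramidal neurons. A rarer kind, marked by neuronal nitric oxide synthase (Nos1), neuropeptide Y (Npy) and Chodl, has long-range axons and is active in sleep. Somatostatin is made as a precursor, cut and packed into dense core vesicles, and its gene carries a textbook cyclic AMP response element (CRE), the palindrome TGACGTCA bound by CREB.

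The starts of Sst, of the peptide genes Cartpt, Npy and Cort, and of Crhbp and Resp18, on which the results turn, are given first, because the CRE is the best known control element of Sst. Each line gives the 120 bases before the gene start, 5′ to 3′ on the gene's strand, from the RefSeq promoter table (build GRCm38.p6), placed at its single exact match in NCBIM37, the build of the files (Sst chr16:23890931-23891050, minus strand; Cartpt chr13:100670639-100670758, minus strand; Npy chr6:49772589-49772708, plus strand; Cort chr4:148500873-148500992, minus strand; Crhbp chr13:96214787-96214906, minus strand; Resp18 chr1:75274991-75275110, minus strand). The capitals mark TGACGTCA, which reads the same on both strands.
Sst: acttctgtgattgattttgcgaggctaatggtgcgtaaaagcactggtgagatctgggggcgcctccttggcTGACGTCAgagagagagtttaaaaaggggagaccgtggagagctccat
Cartpt: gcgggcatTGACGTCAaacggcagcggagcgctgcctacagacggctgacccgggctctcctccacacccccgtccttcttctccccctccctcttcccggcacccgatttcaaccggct
Npy: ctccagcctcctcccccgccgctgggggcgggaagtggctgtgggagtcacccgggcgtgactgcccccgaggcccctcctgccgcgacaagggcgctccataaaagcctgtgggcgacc
Cort: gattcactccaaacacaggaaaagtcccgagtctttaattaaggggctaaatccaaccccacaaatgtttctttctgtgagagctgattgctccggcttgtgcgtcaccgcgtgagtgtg
Crhbp: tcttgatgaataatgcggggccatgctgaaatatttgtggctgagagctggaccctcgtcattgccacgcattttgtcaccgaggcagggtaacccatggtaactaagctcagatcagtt
Resp18: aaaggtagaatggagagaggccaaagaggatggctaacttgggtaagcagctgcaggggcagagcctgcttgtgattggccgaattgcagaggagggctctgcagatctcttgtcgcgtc

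The element began 48 bases before the start of Sst and 112 before that of Cartpt, and the letters were not in the windows of Npy, Cort, Crhbp and Resp18. Over windows of 300 bases (250 before to 50 after the start) the motif was in 588 of 32851 RefSeq promoters (1.79%). Counted by gene symbol, as for the lists that follow, it was in 549 of 27025 (2.03%). Among the neuropeptide genes with an entry, 2 of 15 held it (Sst and Cartpt). In the list for making and packing peptides 4 of 15 held it (Chgb, Pcsk1, Scg2 and Peg3). Of these, Peg3 codes for a transcription factor and does not itself make or pack peptides. Among the genes called by age (described further on) 2 of the 28 with an entry held it, Cartpt and Dusp1, both lower at P60, and 0 of the 9 that were higher. A match is a description of the letters only.

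The name of the cluster held at P60. Levels are given as CPM, the UMIs of a gene in the summed cells scaled to a common total of all UMIs, leaving out mitochondrial and ribosomal protein genes, and intervals are 95% Poisson intervals that cover counting error only. Sst (ENSMUSG00000004366, chr16:23889667-23890930 of NCBIM37) stood at 40385 CPM in Inhib_1 at P60, with an interval from 39731 to 41048. Inhib_2 followed with 22948 CPM, and Inhib_3 and Inhib_7 with 571 and 477 CPM, so Sst separated 2 clusters from the other 10. In endothelial cells, which should lack Sst, the level was 7.93 CPM. All 36 adult cells carried Sst UMIs, between 19 and 1790 with a median of 245.5, whereas 3.34% of the P60 endothelial cells had one, at a median depth of 4516 UMIs against 11188 in Inhib_1.

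The general markers of the lineage were present as well. Gad1 and Gad2, which make GABA, stood at 968 and 893 CPM at P60, and Slc32a1, the vesicular GABA transporter, at 334 CPM. Lhx6 and Sox6 were both at 100 CPM, Sox6 being highest in Inhib_1 of the 12 clusters, and Vip, the marker of another interneuron class, had 0 UMIs at both ages. The sample labels name the nucleus accumbens as the tissue in one field and the PFC in others. Of 10 markers of striatal projection neurons, Ppp1r1b, Adora2a and Gpr6 had 0 UMIs in the adult cells, Drd2 had 1 and Drd1a 8. The sum over the list was 1529, 2651 and 1309 CPM in the P21 libraries, of which Tac1 gave 1344, 2235 and 902 CPM, and 300 CPM in library 9 and 308 CPM in the other adult libraries. The peptide genes Penk (99.8 and 134 CPM) and Pdyn (189 and 59.4 CPM), which cortical interneurons also use, gave most of the adult sums.

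At P21 the name held for most cells but not all. Sst was at 23396 CPM in Inhib_1, at 24295 in Inhib_2 and at 5773 in Inhib_3, which had only 12 cells at that age. Of the 98 P21 cells, 11 had 0 UMIs of Sst and 20 were under 1000 CPM (7, 7 and 6 in the 3 libraries), and none of the 36 adult cells was. Few cells lay near that limit, with 1 P21 cell between 500 and 1000 CPM and 3 between 1000 CPM and the double of it. P21 cells had been named by their correlation with the P60 clusters, and 1 of the 98 has a class in the same table that is not inhibitory (microglia). Each result on age below is therefore also given without the 20 cells where that changes it.

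**Figure D1:**
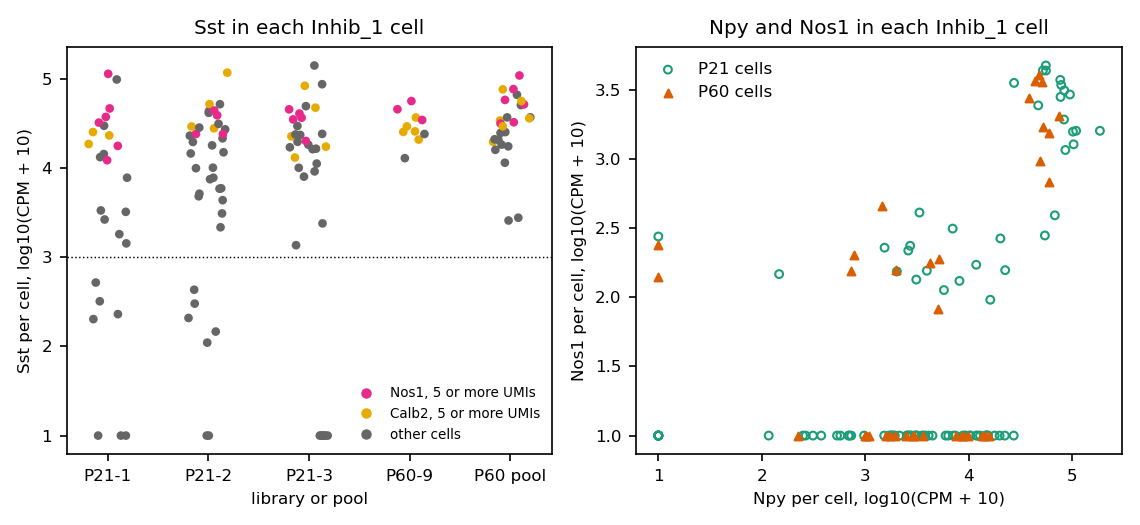
Each Inhib_1 cell as 1 point. Left, Sst as log10(CPM + 10) for the 3 P21 libraries, P60 library 9 and the pool of the other P60 libraries, with cells of 5 or more UMIs of Nos1 in pink, cells of 5 or more UMIs of Calb2 in yellow and the line at 1000 CPM; 20 of the 98 P21 cells and 0 of the 36 P60 cells lie below it. Right, Nos1 (vertical axis) against Npy (horizontal axis) on the same scale, with P21 cells as circles and P60 cells as triangles; the cells high in Nos1 are at the upper right, where Npy is highest.

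Against the other inhibitory clusters Inhib_1 stood out by the levels of Chodl, Crhbp and Nos1. These levels are descriptions without a test, since the clusters were made from the same counts. Of 3047 genes with at least 20 UMIs in Inhib_1 at P60, 315 were highest there, and 14 were over 2 times the next cluster, 12 of which were highest in Inhib_1 at P21 too. The match at P21 is not independent, since P21 cells were named by their likeness to the P60 clusters. Chodl was at 161 CPM (58 UMIs) against 2.48 CPM in Inhib_4, which is 1 UMI, a ratio of 65.0 with an exact 95% counting interval from 11.2 to 2611. Crhbp, whose protein binds and holds back corticotropin-releasing hormone, stood at 6.67 times the next cluster (2876 CPM against 431 in Inhib_2), and Nos1 6.25 times (782 against 125 in Inhib_8).

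Further down the same order came Ptn, a heparin-binding growth factor (4.03 times), Tacr1, the receptor of substance P (3.19 times), Nppc, the precursor of C-type natriuretic peptide (3.16 times), and Oxtr, the oxytocin receptor (2.89 times). Cort, the gene of cortistatin, a peptide related to somatostatin, stood at 1112 CPM, 2.82 times the level in Inhib_7. Npy was not particular to the cluster, since Inhib_7 had 29599 CPM and Inhib_1 21284 CPM, but it divided Inhib_1 from Inhib_2, which had 1107 CPM. Calb2, at 687 CPM, was under the 2015 CPM of Inhib_4.

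Inhib_2 was the cluster most like Inhib_1. Over 8208 genes the Pearson correlation of log2(CPM + 10) between them was 0.945 at P60, and with the other 10 clusters it lay between 0.836 and 0.894. This is a correlation across genes of cells from the same libraries, and genes are not independent replicates. At P21 it was 0.970 with Inhib_2 and 0.945 with Inhib_6, the Pvalb cluster. Inhib_1 at P60 correlated with Inhib_1 at P21 at 0.935 and with Inhib_2 at P21 at 0.940. The sums differed in depth, with 746460 UMIs in Inhib_1 and 2410159 in Inhib_2 at P21. Inhib_6 held 1038968 UMIs at P21 and 327301 at P60. Counting error lowers a correlation more in a shallower sum, so these values do not decide the closest match across ages. The part of depth was not tested.

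Of 5427 genes with enough UMIs, 271 differed by over 2-fold between Inhib_1 and Inhib_2 at P60, and 209 of these differed in the same direction at P21. P21 cells had been put into these clusters by their likeness to the P60 clusters. Agreement in direction is thus partly built in and is no independent support. Nos1 (782 against 11.5 CPM), Npy and Chodl led the genes higher in Inhib_1, Chodl having 0 UMIs in the 112 adult Inhib_2 cells, which makes it at least 55.9-fold higher against a floor of 3 UMIs over the group. At P21 these genes were present in Inhib_2 and the distance was smaller, with Nos1 at 682 CPM in Inhib_1 and 113 in Inhib_2, Npy at 21862 and 6139 CPM and Chodl at 145 and 27.8 CPM. The ratio of Nos1 was thus 68.0 at P60 and 6.04 at P21, and that of Npy 19.2 and 3.56. Others higher in Inhib_1 at P60 were Gucy1a3, a subunit of the soluble guanylate cyclase that nitric oxide activates (108 against 3.84 CPM), and Col25a1, a membrane collagen (225 against 18.3 CPM). Lower in Inhib_1 were Nr2f2, a transcription factor of the caudal eminence (0 against 174 CPM), Reln, the secreted glycoprotein reelin (61.2 against 346 CPM), and Myh8, a myosin heavy chain (0 against 87.4 CPM). Hbb-b2, a hemoglobin gene carried by red blood cells, was also lower in Inhib_1 (19.5 against 304 CPM).

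Some further genes that the study links to one or the other Sst cluster lay as follows at P60. Cartpt, the peptide of cocaine- and amphetamine-regulated transcript, was at 16.7 CPM in Inhib_1 and 257 in Inhib_2, B3gat2 at 8.34 and 154, and Kcnmb4, a subunit of BK potassium channels, at 25.0 and 113. Stim2, a calcium sensor of the endoplasmic reticulum, was at 47.3 and 26.9 CPM, and Cul4a at 50.1 and 29.8. These last levels rest on 17 UMIs of Stim2 and 18 of Cul4a in Inhib_1, and the interval of Stim2 ran from 27.5 to 75.7 CPM. At P21 Stim2 was lower in Inhib_1, at 17.4 CPM against 31.5 in Inhib_2, and Cul4a was at 30.8 and 23.6 CPM. Cartpt was then at 360 and 479 CPM, B3gat2 at 16.1 and 94.2 and Kcnmb4 at 36.2 and 109. That list was chosen by the study on these samples, so it is not independent evidence of direction.

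**Figure D2:**
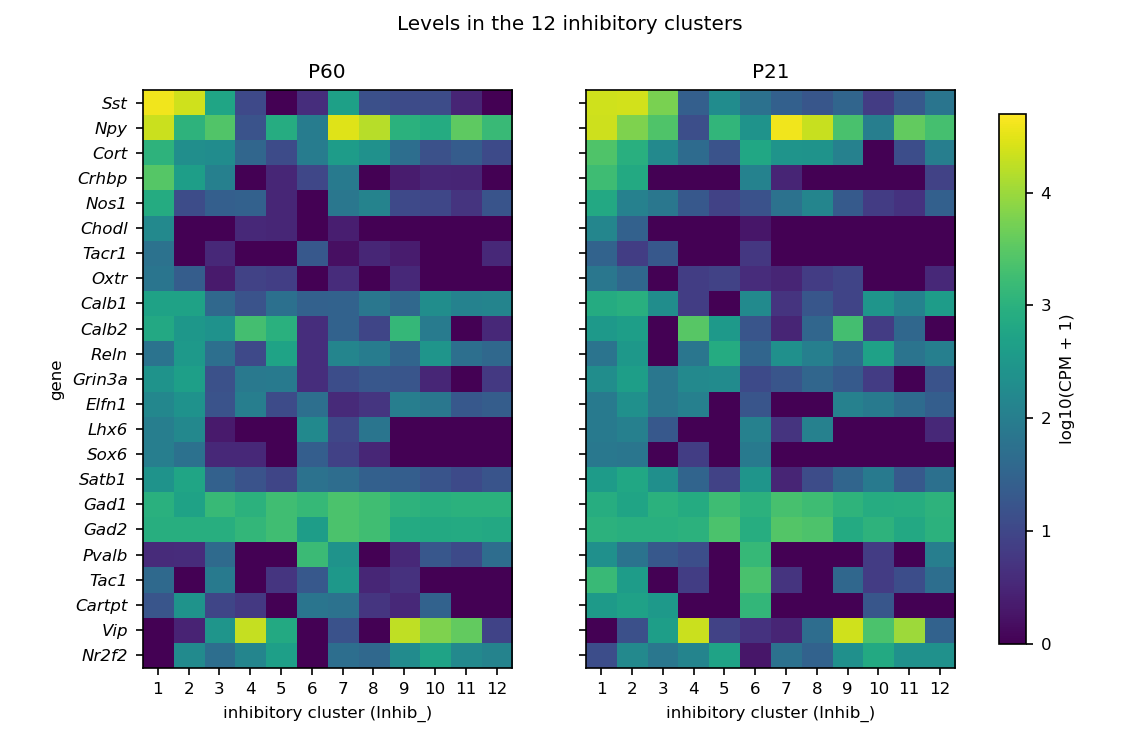
Levels of 23 named genes (vertical axis) in the 12 inhibitory clusters (horizontal axis) at P60 (left) and P21 (right), as log10(CPM + 1) in color. Sst is high in clusters 1 and 2 at both ages, while Chodl, Nos1 and Crhbp are highest in cluster 1; at P21 cluster 1 also shows Pvalb, Tac1 and Cartpt.

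Inhib_1 was not uniform, and cells with Nos1 stood apart within it. At P60, 9 of 36 cells (25.0%, exact 95% interval 12.1% to 42.2%) had 5 or more UMIs of Nos1, and at P21 16 of 98 (16.3%, 9.63% to 25.2%). Such cells were found in every unit with at least 10 cells, with 6, 5 and 5 in the P21 libraries, 3 of 10 in P60 library 9 and 6 of 26 in the other P60 libraries. The limit was clear of most cells, since 1 adult and 2 P21 cells had 3 or 4 UMIs. The limit was set after the values were seen, and levels in these cells are descriptions with no test.

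Chodl was confined to these cells among the members of Inhib_1: it was found in 9 of the 9 adult cells and 15 of the 16 P21 cells, and had 0 UMIs in the other 27 and 82. The Nos1 cells held Npy at 53806 CPM at P60 and 74311 at P21, against 4649 and 7151 in the rest, and their cells ranged from 393 to 1401 Npy UMIs at P60 and from 412 to 1131 at P21. The other cells reached 165 Npy UMIs at P60 and 535 at P21, so the 2 kinds were apart at P60 and overlapped at P21. Sst was also higher in them, at 60586 against 30052 CPM at P60 and 34220 against 20360 at P21. Calb1, the calcium buffer calbindin, had 0 UMIs in all 25 Nos1 cells and stood at 786 and 1009 CPM in the rest.

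Other genes followed the same division at both ages. Pcp4, a calmodulin regulator, was at 5547 CPM in the adult Nos1 cells against 383 in the rest, Ptn at 1348 against 46.2, Crhbp at 5769 against 1396 and Tacr1 at 164 against 4.20. Gabrb2, a subunit of the GABAA receptor, went the other way, at 16.4 against 240 CPM. Mef2c, an activity-linked transcription factor, was at 49.3 against 912 CPM and Rbp4, a retinol carrier, at 57.5 against 610.

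Snap25, a synaptic fusion protein used as a general neuronal marker, was lower in the Nos1 cells in each of the 5 units. It lay between 696 and 1096 CPM in them and between 2527 and 4517 in the rest of the same units. Their median depth was higher, between 10471 and 15574 UMIs per cell against 6307 to 10399. One Nos1 cell of P21 library 3 held 183 UMIs of Mbp, a myelin gene, and the Nos1 cell of P60 library 12 held 27; the part of myelin RNA in the other differences was not tested.

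The remaining cells held further markers. Calb2, which codes for calretinin, reached 5 or more UMIs in 12 of 36 adult cells and 15 of 98 P21 cells, of which 1 and 3 were Nos1 cells. Of the 12 adult cells, 9 came from cocaine and 3 from saline libraries. The adult Calb2 cells held Sst at 39983 CPM and Calb1 at 1096 CPM. Th, the rate-limiting enzyme of catecholamine synthesis, had a UMI in 6 adult and 11 P21 cells, and none of these was a Nos1 cell or had 5 or more UMIs of Calb2. That left 10 adult and 59 P21 cells without any of these 3 markers, by the limits given. Th was named after its values were seen.

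The share of Inhib_1 among inhibitory cells was compared between the ages over libraries. It was 8.97%, 12.6% and 9.16% in the P21 libraries. In the saline libraries it was 0% in both at maintenance, 5.08% and 5.50% after 48 h and 3.43% and 0.694% after 15 days. The ages did not overlap: the mean was 10.3% ± 2.06 (SD, n = 3) at P21 and 2.45% ± 2.54 (n = 6) in saline adults, a difference of -7.80 percentage points (P60 minus P21), and the exact permutation p = 0.0119, with both tails counted, was the smallest that the 84 splits allow. Without the 20 P21 cells under 1000 CPM of Sst the P21 mean was 8.13% ± 1.94 and the exact permutation p = 0.0238. The n = 3 at P21 counts libraries, which may share mice, and the test took them as independent. With any 1 of the P21 libraries left out the exact permutation p was 0.0357.

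Few inhibitory cells stood behind some of these shares. The libraries with 0 members held 19 to 34 inhibitory cells, so that a count of 0, taken as a limit of 3 cells, allows a share of up to 15.8% in one of the saline libraries at maintenance and up to 10.7% in the other, and the exact binomial intervals end at 17.6% and 12.3%. The share depended on what it was taken of: among the cells of Inhib_1 and Inhib_2 together, Inhib_1 made up 22.6% ± 4.84 at P21 and 22.4% ± 17.0 in the 5 saline libraries with such cells (exact permutation p = 1.00). Dissociated cells were counted, so a share of captured cells need not be a share of the tissue, and age and the sets of libraries cannot be told apart. Nor can age be told apart from the food training, catheter surgery and self-administration that the methods give for the adult mice alone.

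Cocaine self-administration was not accompanied by a detectable change in the share. The cocaine libraries held 0% and 4.17% at maintenance, 0% and 1.32% after 48 h and 4.59% and 3.45% after 15 days. Their mean was 2.25% ± 2.08 (n = 6), which is 0.200 percentage points under the saline mean, with groups that overlapped fully (exact permutation within time points, p = 0.861). The sign of this difference turned when library 1, 5, 6 or 7 was left out.

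**Figure D3:**
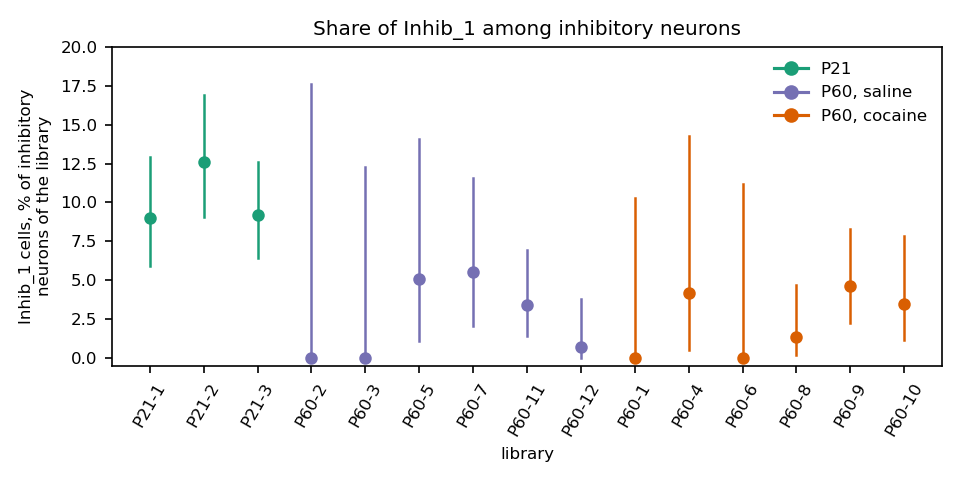
Share of Inhib_1 among the inhibitory cells of each library (vertical axis, %), with P21 libraries in green, saline libraries in purple and cocaine libraries in orange, and exact 95% binomial intervals as bars. The P21 libraries lie between 8.97% and 12.6% and the 12 adult libraries between 0% and 5.50%.

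Because most adult libraries held fewer than 10 Inhib_1 cells, levels at the 2 ages were compared over 5 units: the 3 P21 libraries (26, 38 and 34 cells), P60 library 9 (cocaine, 15 days of withdrawal, 10 cells) and a pool of the 26 cells of the other adult libraries, 17 of them from saline and 9 from cocaine mice. The units held between 90149 and 269413 UMIs. Adult cells were deeper, with medians of 10857 and 11188 UMIs against 10485.5, 7529 and 6834.5, and the medians of both ages were apart by 2740 UMIs (exact permutation p = 0.200, where 10 splits allow no less than 0.1). The median share of mitochondrial UMIs was 2.79% and 2.81% in the adult units and 4.29%, 5.33% and 3.82% at P21, and its part in the results below was not tested.

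At a Benjamini-Hochberg adjusted p under 0.05 and over 1.5-fold (edgeR quasi-likelihood test), 40 of 4615 genes tested differed by age, which is 0.867%, with 11 higher at P60 (0.238%) and 29 lower (0.628%). An unadjusted p under 0.05 was reached by 605 genes, and the values of the 2 ages did not overlap for 31.3% of the genes tested. No library holds both ages, so age cannot be told apart from the sets of libraries in any of these differences. The same holds for the food restriction, food training, catheter surgery and self-administration, which the methods give for the adult mice alone. The P60 side rests on 2 units, and which unit was left out changed the count: 81 genes were called without library 9, 26 without the pool of the other adult libraries, 18 without P21 library 2 and 24 without P21 library 3. DESeq2 called 11 genes, 10 of them among the 40, and with the 17 saline cells as the only adult unit 55 genes were called, 22 of them among the 40. The calls of Cartpt, Cox6a2, Pvalb, Rbp4, Erbb4 and Resp18 held with each of the 5 units left out in turn.

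Sst itself was not called. Its level was 19683, 19894 and 31819 CPM in the P21 libraries and 34188 and 42459 CPM in the adult units. The adult values lay above all P21 values, and the log2 fold change (P60 over P21) was 0.72 ± 0.22 (SE) with an adjusted p of 0.136 by edgeR. Without the cells under 1000 CPM of Sst, the P21 level was 28856 CPM. Npy overlapped between the ages, at 19868, 19727 and 26678 CPM at P21 and 20322 and 21606 CPM at P60 (log2 fold change -0.05).

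Among the other peptides, Cort stood at 2469, 1805 and 3359 CPM at P21 and at 599 and 1284 CPM at P60. These ranges were apart, and the change of -1.35 ± 0.38 on the log2 scale was not called (edgeR adjusted p = 0.170). Crhbp went the other way, from 1623, 1506 and 2229 CPM to 2995 and 2836 CPM, with 0.74 ± 0.21 and an edgeR adjusted p of 0.102. Tac1, which codes for substance P, was at 1344, 2235 and 902 CPM at P21 and at 0 and 52.0 CPM at P60, and missed the threshold (-5.26 ± 0.75, edgeR adjusted p = 0.0576). In Inhib_2 Tac1 was at 394 CPM at P21 and at 0 at P60, and was called there (edgeR adjusted p = 0.0107). In Inhib_6 Tac1 was at 2284 and 18.3 CPM.

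Cartpt alone was called among the listed peptide genes, while Tac1 had a larger fitted decrease that missed the threshold. Cartpt was at 264, 462 and 357 CPM at P21 and at 0 and 22.3 CPM at P60, where all 6 UMIs came from 1 cell. All P21 libraries were above both adult units, the lowest of them at least 7.93 times above library 9 by the floor of 3 UMIs, and the log2 fold change was -4.37 ± 0.47 with an edgeR adjusted p of 3.12e-06. Thinned to 3000 UMIs per cell, 27.4% of P21 cells and 2.78% of adult cells still held a UMI, and 0.492% of P21 endothelial cells did. The 20 P21 cells low in Sst held 50.6% of the Cartpt UMIs of that age but 19.0% of all UMIs. Without them the change was -3.69 and was still called (edgeR adjusted p = 5.02e-04). Cartpt was also lower at P60 than at P21 in Inhib_2 (257 against 479 CPM) and in Inhib_6 (67.2 against 1278 CPM).

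Of the 20 neuropeptide genes listed, 9 could be tested and 1, Cartpt, was called, where 0.867% of all genes tested were, with a median log2 fold change of -0.56 against -0.01 over all genes tested. Of the 17 genes listed for processing and packing peptides, the transcription factor gene Peg3 included, 13 were tested and 1 rose (0.238% over all genes), with a median of 0.31. That gene was Resp18, which codes for a protein of dense core granules. It was at 800, 668 and 741 CPM at P21 and at 1753 and 2012 CPM at P60, so that both adult units were over 2 times each P21 library (1.39 ± 0.20, edgeR adjusted p = 1.89e-04). Of the other members, Pcsk2, a convertase that cuts peptide precursors, was at 94.4, 54.3 and 49.1 CPM at P21 and 122 and 134 CPM at P60 (1.00 ± 0.35, adjusted p = 0.188), and Scg2, a granin, changed by -0.53 ± 0.26 (adjusted p = 0.396). Without the Nos1 cells the change of Resp18 was 1.15 and was not called (adjusted p = 0.117).

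Pvalb and Cox6a2 had the largest fitted decreases with age among the called genes with UMIs at both ages. Pvalb, the calcium buffer parvalbumin, stood at 253, 241 and 174 CPM at P21 and at 0 and 3.71 CPM, which is 1 UMI, at P60 (-6.03 ± 0.61, edgeR adjusted p = 1.29e-06). From P21 to P60 Pvalb went from 60.6 to 2.88 CPM in Inhib_2 and from 1388 to 1613 CPM in Inhib_6. Cox6a2, a subunit of cytochrome c oxidase, stood at 366, 248 and 161 CPM and at 0 and 3.71 CPM (-6.25 ± 0.67, adjusted p = 3.12e-06). Both were near 0 in the adult cells, and the potassium channel gene Kcnc2 (Kv3.2) fell less, from 400, 505 and 344 CPM to 99.8 and 174 CPM (-1.44 ± 0.28, adjusted p = 0.00890). The call of Kcnc2 was lost without P21 library 2 and with the saline cells as the only adult unit (-0.98, edgeR adjusted p = 0.165).

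The P21 cells low in Sst moved with these genes. They made up 20 of 98 cells and 19.0% of the UMIs, and held 58.3% of the Pvalb, 48.4% of the Tcap, 45.7% of the Cox6a2 and 36.7% of the Erbb4 UMIs. All 20 had Gad1 or Gad2 and Snap25, none had Calb2, Tac1 was found in 17, Cartpt in 11 and Pvalb in 9. Their levels were 690 CPM of Pvalb, 3318 of Tac1, 958 of Cartpt and 1029 of Npy, against 116, 1097, 220 and 26753 in the other P21 cells. In Inhib_6, the cluster highest in Pvalb at P21, Pvalb was at 1388 CPM and Tac1 at 2284 CPM.

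With those cells left out at both ages, 5 genes were called in place of 40: Cartpt, Cox6a2 (-5.67, edgeR adjusted p = 0.00139), Rbp4 (-2.08, adjusted p = 1.31e-04), Ptgds (4.83) and Resp18 (1.18). Pvalb was too low to be tested there. The levels in the remaining P21 cells were still above the adult ones for Pvalb (116 CPM) and Cox6a2 (177 CPM). Erbb4 was then at -2.32 with an adjusted p of 0.0584 and Kcnc2 at -1.22 with 0.0855, both by edgeR, so their direction held and their calls did not. None of the other genes among the 40 was called in that setting.

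**Figure D4:**
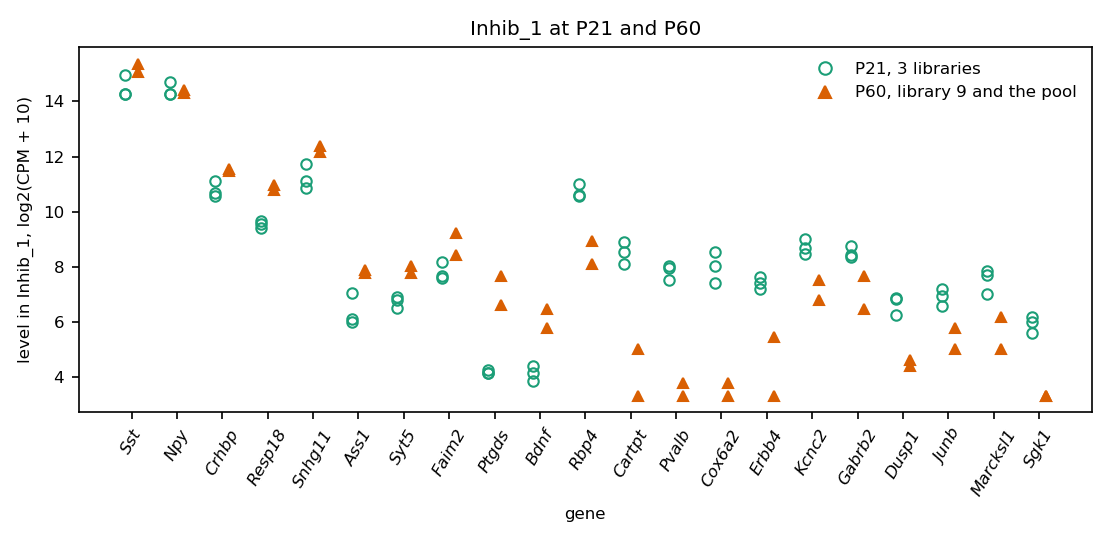
Level of 21 genes in Inhib_1 as log2(CPM + 10), with the 3 P21 libraries as circles and P60 library 9 and the pool of the other adult libraries as triangles. Pvalb, Cox6a2, Cartpt and Sgk1 lie near the bottom at P60, Npy overlaps between the ages, and Sst and Crhbp lie higher at P60 without being called.

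Among the receptors for GABA, through which these cells are themselves inhibited, 9 of 13 listed GABAA receptor genes were tested and 2 fell (0.628% over all genes), with a list median of -0.46. One of them was Gabrb2, the subunit beta 2, at 336, 427 and 317 CPM at P21 and at 77.6 and 193 CPM at P60. Both adult values lay under all P21 values, and the log2 fold change was -1.19 ± 0.29 (edgeR adjusted p = 0.0491). This call was among the less firm, since it was lost without P60 library 9 or any 1 of the P21 libraries and without the low-Sst cells (-0.97, adjusted p = 0.226), without the Nos1 cells (adjusted p = 0.0701) and under DESeq2. With the saline cells as the only adult unit the change was -0.36 (edgeR adjusted p = 0.728), the sign being kept each time.

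The other signalling lists are too short to be read against the 0.867% of genes called over all. None of the 10 glutamate receptor genes tested was called (list of 14, median 0.30), and of 22 ion channel genes tested only Kcnc2 was called (list of 38, median -0.14). None of the 17 synaptic adhesion genes tested was called (list of 26, median 0.02), nor any of the 7 genes of the medial eminence lineage (list of 10, median 0.31) or the 8 receptors and modulators of somatostatin neurons (list of 33, median 0.39). Erbb4, the neuregulin receptor, fell from 136, 186 and 161 CPM to 0 and 33.4 CPM (-2.65 ± 0.47, edgeR adjusted p = 0.00294).

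Of 28 immediate early and stress genes 14 were tested and 2 fell (0.628% over all genes), Dusp1, a phosphatase of MAP kinases (106, 105 and 67.0 CPM at P21, 11.1 and 14.8 at P60), and Junb, a subunit of AP-1 (136, 113 and 84.9 against 44.4 and 22.3 CPM). Without the adult pool neither was called, Dusp1 was not called with the saline cells as the only adult unit (-1.97, edgeR adjusted p = 0.122), and Junb was not called without P21 library 1 or 2 either. Sgk1, a kinase induced by stress hormones, had 0 UMIs in the adult cells and was at least 6.10-fold lower than at P21, against a floor of 3 UMIs over the adult cells (edgeR adjusted p = 0.0207, not called without the adult pool).

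Of 25 genes of immature neurons 21 were tested and 1 fell (0.628% over all genes). It was Marcksl1, an actin-linked substrate of protein kinase C, at 223, 120 and 197 CPM at P21 and 22.2 and 63.1 CPM at P60 (-1.76 ± 0.40, edgeR adjusted p = 0.0262, lost without P21 library 1 or 3). Of 28 genes of mature neurons and late development 25 were tested and 1 rose (0.238% over all genes), Ptgds, a prostaglandin synthase. It stood at 7.55, 7.76 and 8.93 CPM at P21 and at 88.7 and 193 CPM at P60 (4.25 ± 0.48, edgeR adjusted p = 3.12e-06). Of its 60 adult UMIs, 45 lay in 1 cell, and with cells rich in Mbp left out it was not tested. Summed oligodendrocyte markers were at 200, 77.6 and 1496 CPM in the P21 libraries and at 155 and 705 CPM in the adult units.

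A further 8 genes rose, and no adult cell held over 12.5% of the adult UMIs of any of them. Snhg11, a non-coding RNA of neurons, stood at 3405, 2212 and 1858 CPM at P21 and at 5391 and 4591 CPM at P60 (1.03 ± 0.22, edgeR adjusted p = 0.0197). Ass1, an enzyme that recycles citrulline to arginine, the substrate of nitric oxide synthase, went from 121, 54.3 and 58.1 CPM to 211 and 226 CPM (1.53 ± 0.32, adjusted p = 0.0197). Also higher at P60 were Syt5, a synaptotagmin (1.31), Faim2, an inhibitor of Fas signalling (1.17), Gstp1, a glutathione transferase (1.94), Tkt, transketolase (1.21), Pde1a, a calmodulin-dependent phosphodiesterase (0.94), and Ppia, cyclophilin A (0.93). Gstp1 and Ppia have near-identical copies in the genome, and how their reads were divided is not known. The Nos1 cells, which held 33.8% of the adult UMIs, held 61.4% of those of Pde1a. At P21 they held 21.9% of all UMIs and 73.9% of those of Pde1a. Without the Nos1 cells the change of Pde1a was 1.69 (edgeR adjusted p = 0.00139).

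These calls did not hold against single libraries, since none of the 8 was called without P21 library 2, nor without P21 library 3. With the saline cells as the only adult unit Snhg11, Gstp1, Pde1a and Ppia were not called. Their changes were then 0.99 for Snhg11 (1.03 with both adult units) and 0.78 for Pde1a (0.94), and 1.13 for Gstp1 (1.94) and 0.53 for Ppia (0.93). Bdnf, the neurotrophin, was at 11.3, 7.76 and 4.47 CPM at P21 and at 44.4 and 77.9 CPM at P60, but 15 of its 25 adult UMIs came from 1 cell, and it was not called without P21 library 2 or 3. Among the remaining genes that fell, Rbp4 was at 1510, 2065 and 1563 CPM at P21 and at 266 and 475 CPM at P60 (-2.09 ± 0.25, edgeR adjusted p = 1.08e-05), and the low-Sst cells held 21.5% of its P21 UMIs, close to their 19.0% of all UMIs. Phlda1 (-1.97), Spry2, an inhibitor of receptor kinases (-2.25), Tcap, a sarcomere protein (-4.65), and Zmat4 (-4.27) also fell, and each of these lost its call without the adult pool, Zmat4 also with the saline cells as the only adult unit.

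The change with age was then set against that in Inhib_2, whose cells come from the same libraries, with the library or pool as a block. Inhib_2 itself had 34 genes called of 8063 (0.422%), 17 in each direction, a count that ran from 6 without the adult pool to 243 without P21 library 1. Both clusters share their libraries, so their own changes are given side by side. Cartpt changed by -4.37 in Inhib_1 and by -1.01 in Inhib_2, Snhg11 by 1.03 and 1.00, Ass1 by 1.53 and 1.64 and Faim2 by 1.17 and 0.94.

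The difference between the changes was called for 14 of 5248 genes (0.267%), 12 of them higher in Inhib_1 at P60 relative to Inhib_2 (0.229%) and 2 lower (0.0381%). Without the block for the library 0 genes were called by edgeR, with 218 at an unadjusted p under 0.05, against 300 with the block. DESeq2 with the block called 4 genes. The count was 7 without P21 library 2, with 5 of the 14 among them. It was 3 when cells under 1000 CPM of Sst were left out of both clusters, all 3 of them among the 14. Leaving out P60 library 9 or the adult pool left 1 adult unit. Without the adult pool none of the 14 calls was kept, and Th turned its sign. P21 cells were put into either cluster by their likeness to the adult clusters, with the same counts, so the test is not independent of that step.

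Calb2, Crhbp and Cartpt had the lowest adjusted p-values. The level of Calb2 over that of Inhib_2, as log2 of (CPM + 10), was -0.77, -0.18 and -0.20 in the P21 libraries and 1.04 and 1.19 in the adult units. Inhib_1 was thus lower at P21 and higher at P60, and the difference of changes was 1.55 ± 0.20 (edgeR adjusted p = 2.43e-05). The adult level of Calb2 in Inhib_1 was not even over treatments: it was 355 CPM in the saline cells, within the range of the P21 libraries, and 961 and 1043 CPM in the cocaine cells outside and inside library 9, and the difference from Inhib_2 was not fitted for saline cells alone. Crhbp was above Inhib_2 at both ages, by 1.16, 1.01 and 1.64 at P21 and by 2.36 and 2.84 at P60 (1.42 ± 0.19, adjusted p = 1.93e-04). Cartpt was near the level of Inhib_2 at P21 (-0.83, -0.19 and -0.30) and far under it at P60 (-4.32 and -3.16), with a difference of -3.45 ± 0.45 (adjusted p = 2.43e-05). These 3 genes were the ones that kept their call without the low-Sst cells, at 1.33, 1.19 and -2.87, and also under DESeq2, and all lost it without the adult pool or without the block.

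Cort had lower values at P60 in both clusters without being called in either. In Inhib_2 it stood at 963, 678 and 1073 CPM at P21 and at 60.6 and 258 CPM at P60, so that the gap was wider there, and the difference of changes was 1.08 ± 0.20 (edgeR adjusted p = 0.00398, not called without library 9 or the adult pool). Gucy1a3 and Fam46a were at 113, 93.1, 67.0, 111 and 108 CPM and at 102, 73.7, 125, 155 and 104 CPM in the 5 units of Inhib_1, in the order used above. In Inhib_2 they fell, Gucy1a3 from 31.7, 49.4 and 27.0 to 8.09 and 2.52 CPM and Fam46a from 42.2, 52.5 and 43.0 to 8.09 and 8.82 CPM. Their differences were 3.40 ± 0.64 and 2.62 ± 0.52, and neither was called without P21 library 2 or the adult pool, nor Fam46a without library 9. The Nos1 cells moved with these genes: they held 33.8% of all adult UMIs of Inhib_1 but 85.7% of those of Fam46a, 59.0% of Gucy1a3, 67.9% of Crhbp and 93.7% of Ptn, and Nos1 and Chodl stood at 113 and 27.8 CPM in Inhib_2 at P21 and at 11.5 and 0 CPM at P60. The part of Nos1 cells in the differences from Inhib_2 was not tested.

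**Figure D5:**
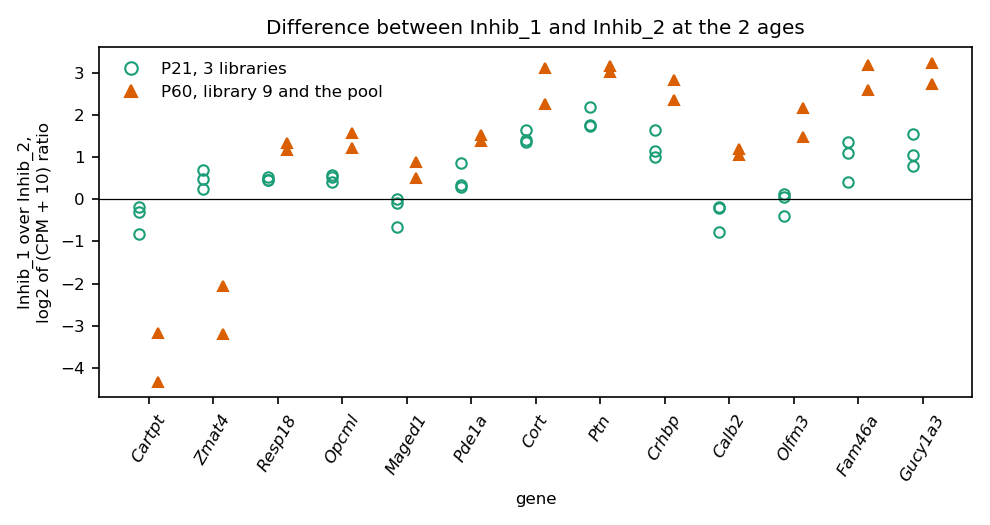
Level in Inhib_1 relative to Inhib_2 for 13 genes along the horizontal axis (vertical axis, log2 ratio of CPM + 10) in the 3 P21 libraries (circles) and the 2 adult units (triangles). Calb2 lies under 0 at P21 and above 1 at P60, Cartpt lies near 0 at P21 and under -3 at P60, and Crhbp lies above 1 at both ages.

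Of 33 listed markers of the subtypes of Sst neurons, 18 were tested and 1, Cartpt, was called, where 0.867% of all genes tested were, and the median log2 fold change was 0.51 against -0.01 over all genes tested. Chodl was at 181, 132 and 116 CPM at P21 and 155 and 163 CPM at P60 (0.20 ± 0.29), and Nos1 at 921, 481 and 630 CPM and 1520 and 534 CPM (0.55 ± 0.50), with ages that overlapped for both. Calb2 was at 204, 454 and 406 CPM at P21 and at 1043 and 568 CPM at P60, apart but not called within Inhib_1 (1.16 ± 0.33, edgeR adjusted p = 0.146), and the 17 saline cells alone, at 355 CPM, lay within the P21 range. Reln was low at both ages, at 52.9, 77.6 and 62.5 CPM and at 22.2 and 74.2 CPM. Of the 10 general markers 8 were tested and 1 fell (median -0.16), of the 12 markers of other interneuron classes 5 were tested and Pvalb alone fell (median 0.26), and of the 10 markers of the caudal eminence 2 were tested and none was called.

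RNA of other cell types was present at low levels. Summed over each marker list, excitatory markers stood at 325, 244 and 264 CPM in the P21 libraries and 654 and 330 CPM in the adult units, astrocyte markers at 260 to 465 and 521 to 568 CPM, endothelial markers at 974 to 1476 and 984 to 1009 CPM, and microglial markers at 31.0 to 331 and 22.2 to 44.5 CPM. Of the 10 endothelial markers 2, 4 and 8 had 0 UMIs in the P21 libraries and 7 and 6 in the adult units. The endothelial sums thus rested on few genes in most units and need not be RNA of endothelial cells. Markers of oligodendrocyte precursors were at 3.78 to 22.3 CPM and at 0 in both adult units. The part of this RNA in the differences by age was not tested beyond the setting without the 2 cells rich in Mbp, in which 37 genes were called.

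Against the sum of the other inhibitory clusters, 85 of 9233 genes (0.921%) changed otherwise in Inhib_1, 56 higher and 29 lower. The count was 18 without the block, 29 with DESeq2 and 17 without the adult pool. The makeup of that sum differed between the ages, with 112 cells of Inhib_2, the other Sst cluster, at P60 and 341 at P21. Inhib_7 had 392 and 76 cells, Inhib_3 135 and 12, and Inhib_6 44 and 162. The part of this makeup in these calls was not tested.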

How the data were processed

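Single cells of the PFC were captured on the 10x Chromium platform, and per the labels reads were aligned and counted with Cell Ranger on the mouse build mm9 (NCBIM37) and clustered with Seurat 2.1.0. The authors deposited UMI counts per gene and cell and a table of cells with the cluster, the class and the fraction of mitochondrial UMIs. The authors had removed cells with very many genes (as doublets), with few genes or with a high mitochondrial fraction, and no doublet caller was run here. P21 cells had been named by the authors by correlation with the P60 clusters. Cells were matched to libraries through the table of cells.

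Counts were summed over the Inhib_1 cells of a library with at least 10 of them, and over all other adult libraries together, because the cocaine remainder alone had 9 cells. Mitochondrial genes (13) and ribosomal protein genes (146) were left out, which kept 25986 of 26145 genes. Sums were tested with edgeR 4.0.16 (TMM, filterByExpr, robust quasi-likelihood, R 4.3.3), called at a Benjamini-Hochberg adjusted p under 0.05 and over 1.5-fold, with DESeq2 1.42.0 as an alternative. The changes of 2 clusters were compared in 1 model with the library or pool as a block, since both clusters come from the same mice. Shares and depths were tested by exact two-sided permutation (scipy 1.17.1). The labels mark libraries and not mice, so p-values measure the spread between these pools. The P21 libraries may share mice, and all tests took them as independent. A gene at 0 is bounded by 3 UMIs.

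On simulated counts with the real means, the age test recovered 25% of genes changed by 1 on the log2 scale and 83% of those changed by 2. The test of the difference from Inhib_2 recovered 1% and 66.5%. Unchanged genes called numbered 5 and 11 in the age test and 2 and 12 in the test of the difference. No effect of the library shared by both clusters was simulated. The members and gene lists were chosen with earlier results of these data known. Genes were named by 3 rules: members of the lists, up to 12 called genes in each direction with the largest non-overlapping change, and up to 12 genes with the highest ratio to another cluster with at least 20 UMIs; Th, the limits on Nos1, Calb2 and Sst and the genes of Nos1 cells were chosen after the values were seen. Older symbols were matched through the reference tables, and promoter sequences come from RefSeq. Some results are not reported here.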

Additional observations from a re-analysis of the deposited data

Results flagged for a closer look

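The change with age in Inhib_1 differed from that in Inhib_2 for 14 genes by a test of the difference itself (edgeR with the library as a block). Of these, 12 were higher in Inhib_1 at P60 relative to Inhib_2, on the log2 scale by 7.01 (Th), 3.40 (Gucy1a3), 2.62 (Fam46a), 2.29 (Olfm3), 1.55 (Calb2), 1.42 (Crhbp), 1.32 (Ptn), 1.08 (Cort), 1.03 (Pde1a), 0.92 (Maged1), 0.91 (Opcml) and 0.79 (Resp18). Zmat4 (-4.70) and Cartpt (-3.45) were lower. Th had UMIs only in saline libraries among the adult cells of Inhib_1 (6 cells) and 0 UMIs in adult Inhib_2, so its fitted value is no bound, and it turned to -1.43 without the adult pool.

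Against the sum of the other inhibitory clusters the difference was called for 85 genes. Positive differences with values apart were those of Ptgds (3.01), the cadherin Cdh7 (3.01), Crhbp (2.60), Kctd8, an auxiliary subunit of GABAB receptors (2.57), Sox6 (2.53), Olfm3 (2.39), Cdc42ep5 (2.13), Neto1 (2.08), Elfn1, which shapes synapses onto Sst neurons (2.03), Grik3 (1.99) and Grin3a (1.97). Negative ones were those of Ly6a (-9.40), Sgk1 (-9.21), Arid5a (-8.56), Cox6a2 (-6.08), Pvalb (-5.46), Zmat4 (-5.15), Tcap (-3.91), Kcnh7 (-3.16), Tac1 (-2.91), the GABAA receptor subunit Gabrd (-2.63) and Parm1 (-2.61). Ly6a, Sgk1 and Arid5a had 0 UMIs in the adult cells of Inhib_1, so their fitted values depend on the model and are no bounds. The part of the 20 P21 cells low in Sst, and of the unequal makeup of the other clusters at the 2 ages, was not tested for these genes. That sum held 341 cells of Inhib_2, the other Sst cluster, at P21 and 112 at P60. Crhbp, Olfm3 and Zmat4 were also called in the difference from Inhib_2, and the other genes named here were not.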

How the results depend on the processing

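Of the 40 genes called by age, all kept their sign under every setting in which they could be tested. The count was 11 with DESeq2, 81 with no filter on low counts, 10 with cells thinned to 3000 UMIs, 13 with P21 libraries 2 and 3 summed and 5 without cells under 1000 CPM of Sst (a setting added after seeing the data), and lay between 18 and 81 with 1 unit left out; it was 55 with saline cells as the only adult unit and 50 without Nos1 cells. Where 1 adult unit was left, it was assumed to vary like the P21 libraries. In Inhib_2 the count lay between 6 and 243 with 1 unit left out. For the difference from Inhib_2 it was 0 with no replicate block, 4 with DESeq2 and 3 without cells low in Sst, and between 3 and 12 with 1 unit left out; for the difference from the other inhibitory clusters it was 18 with no replicate block, 29 with DESeq2 and between 17 and 99 with 1 unit left out. The block is the library or pool that both clusters come from; P21 and P60 libraries share numbers but no mice, so the test of age was not paired. The difference for Th lay between -1.43, without the adult pool, and 7.62, without library 9.

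The share of Inhib_1 differed by -0.176 percentage points when taken of the Sst clusters alone. With 1 library left out the difference by cocaine lay between -0.690 and 0.411, with reversed values of 0.251, 0.327, 0.251 and 0.411 without libraries 1, 5, 6 and 7. The difference in mitochondrial share was -1.759 percentage points over single libraries (exact permutation p = 0.00833). The causes of these changes were not tested. With 36 adult cells in 2 units, a change of 1 on the log2 scale was mostly missed in simulated data, so a gene not called may still differ.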

Other observations

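Levels were not tested by treatment, since 1 library of the 12 held 10 or more members, and the kinds of cells within Inhib_1 were not evenly spread over the libraries. Of 19 cells from cocaine libraries 6 had 5 or more UMIs of Nos1, 9 of Calb2 and 0 had a UMI of Th. Of 17 cells from saline libraries the counts were 3, 3 and 6. Th UMIs came from 3 libraries, with 2 cells in library 5, 1 in library 7 and 3 in library 11. Over the saline cells, the cocaine cells outside library 9 and library 9, Sst was at 38053, 50592 and 34188 CPM, Npy at 19891, 24773 and 20322 CPM, and Calb2 at 355, 961 and 1043 CPM. Cells of a library are not replicates, and no difference by treatment was tested here.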
